A study of Mus musculus with 8 samples.

Results

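The genes described here are a type I interferon response module in cardiac endothelial cells (EC), chosen by name from a fixed list of 39 genes. Of these, 38 were rows of the deposited count table of 16791 genes, and Mx2 was not analysed here. Single-cell RNA sequencing (10X Chromium, 3' assay) was performed on ventricular cells of 4 healthy mice and of 4 mice taken 7 days after myocardial infarction (MI). All 8 animals carried Pdgfb-iCreERT2-R26R-Brainbow2.1, were heterozygous, of either sex and 8 to 10 weeks old, and had received 150 mg/kg tamoxifen 21 days before harvest, which switches on a fluorescent (Confetti) label in cells that use the Pdgfb promoter. The MI group had the left anterior descending (LAD) artery tied off for good 14 days after tamoxifen, and the healthy group had no surgery, so the effect of the ischaemia and that of the operation cannot be told apart. Cells were sorted as CD31+, Confetti+ and podoplanin-, which limits the samples to Pdgfb-lineage cells and leaves out podoplanin-positive lymphatic cells. The mice are named below by the numbers of their labels (Healthy 227, 228, 239 and 240, and MI 244, 250, 255 and 256).

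Type I interferons are secreted by cells that sense foreign or misplaced nucleic acid. They bind the receptor pair Ifnar1 and Ifnar2, whose kinases Jak1 and Tyk2 phosphorylate Stat2. With Irf9 it takes part in a complex that binds interferon-stimulated response elements, short repeats of GAAA, and switches on genes that block viral translation, degrade RNA, sense nucleic acid or damp the signal again. Endothelial cells carry the receptor and respond in this way, and MI is known to raise interferon signalling in the heart, mostly described in infiltrating leukocytes.

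To show the feature that the module is known by, stretches of 5 promoters are printed where the letters GAAANNGAAA (N is any base) were found on either strand, all of them upstream of the annotated start. Sequences are from RefSeq (GRCm38.p6), 5′ to 3′ on the strand of the gene, and capitals mark the match, which reads TTTCNNTTTC where it lies on the opposite strand. The genes are Ifit1 (chr19:34640760-34640838, plus strand), Ifit3 (chr19:34583348-34583441, plus strand), Ifit3b (chr19:34607744-34607837, plus strand), Isg15 (chr4:156200850-156200921, minus strand) and Oas1a (chr5:120907526-120907570, minus strand).
Ifit1: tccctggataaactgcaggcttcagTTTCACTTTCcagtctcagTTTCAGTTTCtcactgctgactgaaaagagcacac
Ifit3: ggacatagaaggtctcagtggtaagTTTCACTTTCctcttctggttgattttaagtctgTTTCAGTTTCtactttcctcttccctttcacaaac
Ifit3b: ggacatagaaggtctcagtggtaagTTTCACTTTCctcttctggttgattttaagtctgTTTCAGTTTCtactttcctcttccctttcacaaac
Isg15: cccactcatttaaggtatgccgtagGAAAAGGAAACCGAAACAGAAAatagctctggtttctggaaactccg
Oas1a: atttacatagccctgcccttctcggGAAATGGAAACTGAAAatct
Ifit1, Ifit3 and Ifit3b each held 2 separate matches, Isg15 held 3 overlapping ones and Oas1a 2 overlapping ones. The 94 bases of Ifit3 and of its neighbouring copy Ifit3b were identical. Of the 31 members with a promoter entry (300 bases, 250 before to 50 after the start), 14 held the letters (45.2%). The letters were in 1131 of all 32851 promoters (3.44%). Counted per gene, they were in 354 of the 9126 genes with an entry that were tested over all EC (3.88%). In a list of 17 targets that lean towards interferon gamma, 12 had an entry and 10 of these held them (83.3%). A match describes these letters and is no binding site.

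The table held 31028 cells, and 2333 of them repeated a cell of another library, with the same barcode and at least 90% of the smaller cell's UMIs (unique molecular identifiers, 1 per captured transcript) on the same genes. Of these copies, 2030 were in Healthy 228 (55.3% of its cells, repeating cells of Healthy 239) and 301 in Healthy 227 (10.9%). The copies, 2216 cells with marker UMIs of other cell types and 10 cells without an endothelial UMI were removed, which left 26469 EC, 1573 to 3524 per healthy and 3342 to 4724 per MI mouse. The 7 endothelial markers checked were detected in 67.5% (Tie1 and Cldn5) to 96.8% (Egfl7) of these cells. The MI libraries were deeper, with 14120568 to 23359949 UMIs against 4797599 to 7500015, so scores per cell were taken after every cell had been thinned to 1000 UMIs (25895 cells, leaving out 574 healthy and 0 MI cells below that depth). Xist, expressed from the silenced X chromosome of females, was at 1.67 counts per 1000000 UMIs (CPM) in Healthy 227, 0.514 in MI 244 and 1017 to 1183 in the other 6 mice, and Y-linked Ddx3y was at 78.5 and 81.8 in those 2 and at 0 in the 6.

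Healthy 227 stood apart in the module. It had the highest CPM of the 4 healthy mice in 35 of the 37 members with a mean of at least 20 CPM (94.6%), against 1809 of 6209 genes at that level (29.1%). The exceptions were Lgals3bp, a secreted glycoprotein, and Oas2, a sensor of double-stranded RNA. Zbp1, a sensor of Z-form nucleic acid, was 3.91 times the mean of the other healthy mice in Healthy 227, Ifit3 1.92 times and Stat2 1.90 times. Healthy 227 was the only healthy mouse without Xist, so its sex, its other differences and its interferon level cannot be told apart, and each result below is given with and without it where it matters.

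At equal depth, MI endothelial cells held more module UMIs on average, and a larger mean share of them responded. The module took 9.03, 7.18, 6.21 and 6.64 UMIs per 1000 in Healthy 227, 228, 239 and 240, and 9.29, 10.3, 10.9 and 8.96 in MI 244, 250, 255 and 256. The means were 7.27 ± 1.24 and 9.87 ± 0.907 (SD, n = 4 each), a ratio of 1.36, or 1.48 without Healthy 227. Healthy 227 reached the lower end of the MI mice and the other healthy mice lay below all of them. Ifitm3, which blocks the entry of viruses at endosomes, gave much of the total, with 3.28, 2.91, 2.61 and 2.69 UMIs per healthy cell and 4.14, 4.51, 4.69 and 4.03 per MI cell, and on it the groups did not overlap. Without Ifitm3 the module was at 5.76 in Healthy 227, above MI 244 (5.15) and MI 256 (4.92), and the difference between the group means fell from 2.60 to 1.13 UMIs per 1000. The members were chosen with earlier results known, so these scores are descriptions and carry no p.

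A responding cell was defined as one with at least 3 of its 1000 UMIs on 12 core genes (Ifit1, Ifit2, Ifit3, Ifit3b, Usp18, Rsad2, Cmpk2, Isg15, Oasl1, Oasl2, Irf7 and Rtp4). Responding cells made up 24.9%, 17.9%, 14.5% and 16.8% of EC in Healthy 227, 228, 239 and 240, and 24.6%, 29.4%, 35.1% and 26.1% in MI 244, 250, 255 and 256. The means were 18.5 ± 4.48% and 28.8 ± 4.67% (SD, n = 4), and Healthy 227 lay just above the lowest MI mouse. In the 6 mice with high Xist, the 3 healthy mice had 16.4 ± 1.75% and the 3 MI mice 30.2 ± 4.59%, with the highest healthy mouse at 17.9% and the lowest MI mouse at 26.1%. The level in a responding cell overlapped between the groups. Core genes took 6.38, 5.52, 5.95 and 6.05 UMIs per responding cell in the healthy mice and 6.58, 6.92, 6.89 and 5.45 in the MI mice (5.97 ± 0.352 and 6.46 ± 0.692). On the 25 members outside the core and without Ifitm3, which do not enter the call, responding cells held 4.76 ± 0.652 and 4.80 ± 0.368 UMIs, and other cells 2.31 ± 0.445 and 2.40 ± 0.0498. Without Healthy 227 the healthy means were 4.44 and 2.102. Divided arithmetically between the share, the level in responding cells and the level in other cells, the share took 71.5% of the difference in core UMIs per cell (71.1% without Healthy 227), but the limit that defines the share also truncates the core level on either side of it. On the members outside the core the share took 76.5% with all mice and 48.6% without Healthy 227, so this division rested on that mouse.

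The core UMIs per cell were graded between none and many. Cells with no core UMI made up 42.4 ± 7.06% of healthy and 31.0 ± 3.68% of MI EC, and cells with at least 10 made up 2.68 ± 0.911% and 4.44 ± 1.29%. Cells below the limit of 3 held 0.633 ± 0.0944 core UMIs in healthy and 0.779 ± 0.0380 in MI mice, with no overlap. The core genes were higher in responding cells by the call itself. All 25 tested members outside the core, Ifitm3 included, had more UMIs per 1000 in responding than in other cells in 8 of 8 mice (100%, against 3.08% of the 6197 genes outside the core with a mean of at least 20 CPM). Among them, the ratio was 4.23 for Zbp1, 3.63 for the 2-5A synthetase Oas1a, 3.60 for Ifi44, 3.44 for Dhx58, a regulator of cytosolic RNA sensing, and 1.29 for Trim25, the ubiquitin ligase of the RIG-I sensor. Free RNA can place UMIs in cells that do not make a transcript, and its part in these shares was not tested. Among the removed cells, at the same depth, haematopoietic cells responded in 9.92% to 15.03% of cells per MI mouse. In the healthy mice with at least 20 of them they responded in 9.52% in Healthy 227, 1.35% in Healthy 239 and 0 of 30 cells in Healthy 240, which allows a share of up to 10%. These shares lay below that of EC in each of the 7 mice. Cells removed for platelet or erythroid markers, which in the main lack a nucleus, responded in 13 of 101 healthy (12.9%, exact 95% interval 7.04% to 21.0%) and 23 of 118 MI cells (19.5%, 12.8% to 27.8%, counting error only). Their median depth was 2369 and 5822 UMIs, against 2104 and 4128 in EC, and they held a median of 3 and 3.5 endothelial marker UMIs per 1000 against 6 in EC, so they were not free of endothelial transcripts.

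**Figure D1:**
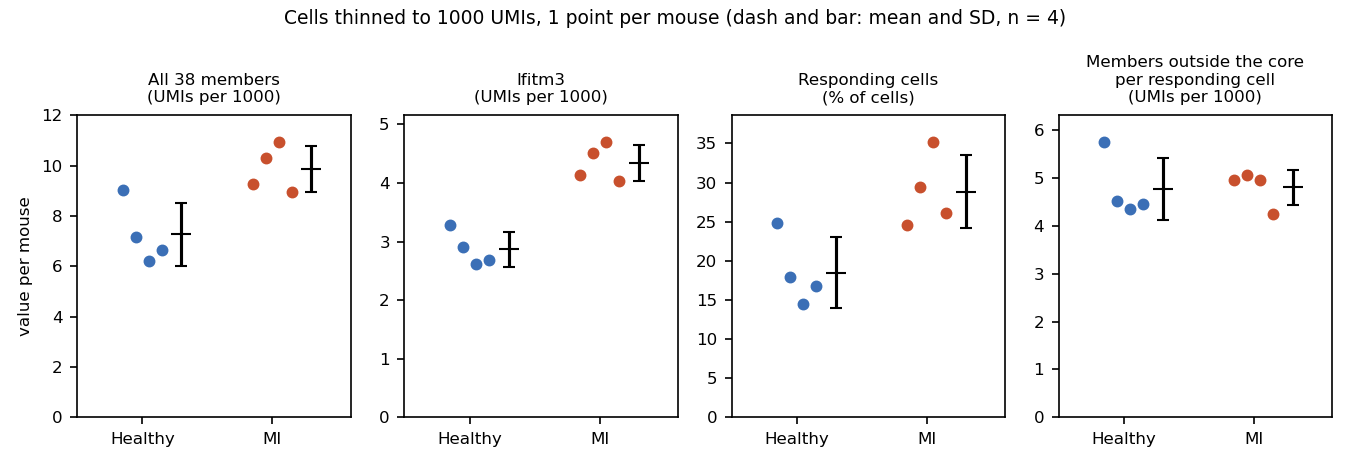
Values per mouse from cells thinned to 1000 UMIs, healthy and MI mice side by side, with the group mean and SD (n = 4). The panels give UMIs per cell or percent of cells as labelled. The share of responding cells was 18.5% and 28.8%, and outside-core UMIs per responding cell were 4.76 and 4.80 (healthy mean 4.44 without Healthy 227).

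To ask which members changed after MI, UMIs were summed per mouse and tested in edgeR (quasi-likelihood, p-values adjusted by Benjamini-Hochberg over 12237 genes). In such sums, more responding cells and more RNA per cell cannot be told apart. Of 37 members tested (Oas3 was too low), 12 were higher in MI (32.4%, against 18.7% of all genes tested) and 4 were lower (10.8%, against 18.9%), and the median log2 fold change was 0.21 against -0.02 over all genes. The higher members were Zbp1, Irf7, Dhx58, Oasl1, Lgals3bp, Ifi44, Oasl2, Usp18, Oas1a, Eif2ak2, Ifitm3 and Cmpk2, and the lower ones were Ddx58, Helz2, Parp14 and Samd9l. Without Healthy 227 the counts were 18 and 2 (against 15.8% and 14.9% of all genes), and with the copied cells kept 13 and 3 (against 19.6% and 19.0%). All 4 MI mice lay above all 4 healthy mice in 10 members (27.0%, against 23.2% of all genes), so the separation of single mice in the module was close to that of the whole transcriptome, and without Healthy 227 in 19 members (51.4%, against 26.3%). By the share of thinned cells with a UMI, 12 members lay above in all MI mice (32.4%, against 17.6% of all genes) and 0 below (against 8.43%).

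The haematopoietic marker list moved with MI in the same sums. All 18 of its genes had a higher mean in MI, their summed level was 25.6 to 168 CPM in healthy and 289 to 504 CPM in MI mice, and none was at 0 over all mice (of the 14 tested, Ptprc, S100a8 and S100a9 were at 0 in 1 healthy mouse each). The summed fibroblast markers were also higher, at 10.4 to 22.9 CPM in healthy and 25.6 to 38.6 CPM in MI mice, with 6 of 7 genes at a higher mean in MI and none at 0 over all mice. The summed endothelial markers were lower, at 6091 to 6589 and 5274 to 5874 CPM. The part of these lists in the result was not tested. In cells without a UMI on the haematopoietic list, 10 members were higher and 0 lower (against 8.06% and 7.97% of all genes), but this kept only 427 to 1203 cells per MI and 1361 to 2870 per healthy mouse. With sex by Xist as a covariate the counts were 12 and 3 (against 17.6% and 17.4%), and in the 6 mice with high Xist 15 and 0 (against 11.1% and 9.46%). These alternatives were chosen after the data were seen. Each mouse was 1 library, so p-values measure the spread between these mice.

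Irf7, the transcription factor that amplifies interferon production and is itself an interferon target, rose after MI. Its level was 134, 86.3, 106 and 116 CPM in Healthy 227, 228, 239 and 240, and 276, 339.6, 439.8 and 228 CPM in MI 244, 250, 255 and 256. The lowest MI mouse was above the highest healthy one, and the log2 fold change was 1.45 (SE 0.19, adjusted p = 0.000686, edgeR). The call held in every alternative run, with a range of 1.27 to 1.61. The partners of the receptor-activated complex did not pass the test. Stat2 had 71.0 ± 28.2 CPM in healthy and 58.6 ± 3.88 CPM in MI mice (adjusted p = 0.232, edgeR), and Irf9 had 114 ± 26.8 and 102 ± 5.17 CPM (adjusted p = 0.193).

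Among Zbp1 and the RIG-I-like helicases, which sense nucleic acid, 2 of 4 members rose and 1 fell (against 18.7% and 18.9% of all genes). Zbp1 was at 32.8, 12.7, 4.27 and 8.16 CPM in the healthy and 59.7, 39.4, 66.6 and 32.1 CPM in the MI mice (log2 fold change 1.72, SE 0.49, adjusted p = 0.0206, edgeR). MI 256 lay just below Healthy 227 and the groups otherwise did not overlap. The call was lost in 4 of 18 alternatives, without Healthy 228, Healthy 240, MI 244 or MI 255 (log2 fold change 1.51 to 1.68, adjusted p = 0.0504 to 0.0552), and without Healthy 227 the log2 fold change was 2.52 (adjusted p = 0.0024). Dhx58 (LGP2) was at 14.1, 8.55, 13.3 and 12.6 CPM in the healthy and 25.4, 32.5, 35.6 and 20.6 CPM in the MI mice (log2 fold change 1.14, SE 0.19, adjusted p = 0.0019), with no overlap. The related helicase Ddx58 (RIG-I) was at 87.7, 86.3, 64.0 and 70.1 CPM and 62.2, 62.9, 69.2 and 66.2 CPM (log2 fold change -0.32, SE 0.11, adjusted p = 0.0418), the groups overlapped, and the call was lost in 13 of 18 alternatives. Ifih1 (MDA5), the remaining helicase sensor, had 62.2 ± 19.2 and 58.5 ± 5.18 CPM and was not called.

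Of the oligoadenylate synthetase family, whose active members make the messenger that switches on RNase L, 3 of 4 tested members rose and 0 fell (against 18.7% and 18.9% of all genes). Oasl1 was at 20.6, 12.1, 13.6 and 13.9 CPM in the healthy and 31.8, 38.3, 41.6 and 27.1 CPM in the MI mice (log2 fold change 1.12, SE 0.18, adjusted p = 0.00146, edgeR). Oasl2 was at 128, 97.5, 71.9 and 89.1 CPM and at 142, 163, 189 and 154 CPM (log2 fold change 0.66, SE 0.16, adjusted p = 0.00969). Oas1a was at 43.2, 25.4, 34.3 and 31.96 CPM and at 50.7, 67.7, 50.0 and 51.1 CPM (log2 fold change 0.62, SE 0.15, adjusted p = 0.0112). In all 3 genes the MI mice lay above the healthy mice. The Oas1a value is uncertain, since 46.0% of the 75-base windows in the last 500 bases of its transcripts also occur in Oas1g. Oas2 had 23.1 ± 7.58 and 27.0 ± 8.16 CPM and was not called, and Oas3 was near 0 in every mouse (0 to 2.51 CPM).

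The Ifit genes, which bind viral RNA and block its translation, and which with Usp18 had been picked by the study as markers of an interferon cluster in these same samples, did not pass the test over all EC. Ifit1 was at 146, 83.0, 112 and 127 CPM in the healthy and 124, 155, 199 and 144 CPM in the MI mice (log2 fold change 0.33, SE 0.17, adjusted p = 0.16, edgeR). Ifit2 was at 123, 84.8, 56.8 and 70.5 CPM and at 122, 116, 123 and 91.1 CPM (log2 fold change 0.35, SE 0.20, adjusted p = 0.204). In Ifit1 Healthy 227 and 240 lay above the lowest MI mouse, and in Ifit2 Healthy 227 was the highest of all 8 mice. Ifit3 was at 206, 123, 99.2 and 101 CPM and at 170.5, 206, 253 and 171 CPM (log2 fold change 0.51, SE 0.23, adjusted p = 0.1), and its copy Ifit3b at 100.4, 72.5, 53.9 and 66.5 CPM and at 88.9, 107, 152 and 96.4 CPM (log2 fold change 0.52, SE 0.20, adjusted p = 0.0692). Here, too, only Healthy 227 overlapped the MI range. Without it, log2 fold changes were 0.58 for Ifit2 (adjusted p = 0.020), 0.80 for Ifit3 (0.006) and 0.70 for Ifit3b (0.022), and Ifit1 was not called under any alternative. Ifit3 and Ifit3b share sequence (9.86% of the end windows of Ifit3 occur in Ifit3b), so their split is uncertain.

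Isg15, the ubiquitin-like modifier, and Usp18, the protease that removes it and also dampens the receptor, behaved differently in the test. Isg15 was at 447, 319, 284 and 359 CPM in the healthy and 394, 510.0, 594 and 431 CPM in the MI mice (log2 fold change 0.37, SE 0.16, adjusted p = 0.0886, edgeR), with Healthy 227 above the 2 lowest MI mice. Without Healthy 227 its log2 fold change was 0.49 (adjusted p = 0.031). Usp18 was at 69.4, 44.0, 50.4 and 60.8 CPM and at 74.5, 107, 112 and 73.3 CPM (log2 fold change 0.62, SE 0.17, adjusted p = 0.0181), with no overlap. Whether the 2 genes differ in their change was not tested. In the fewer cells without haematopoietic UMIs the log2 fold change of Usp18 was 0.55 (adjusted p = 0.053).

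Rsad2 (viperin), which makes a chain-terminating nucleotide, did not pass the test. Its level was 461, 374, 196 and 215 CPM in the healthy and 287, 347, 341 and 256 CPM in the MI mice. The healthy values spread beyond the MI values on both sides (log2 fold change -0.11, SE 0.25, adjusted p = 0.764, edgeR), and the sign turned to 0.14 without Healthy 227. Its genomic neighbour Cmpk2, a mitochondrial nucleotide kinase that supplies the substrate, was at 87.0, 62.5, 60.9 and 64.5 CPM and at 92.3, 107, 104 and 78.1 CPM (log2 fold change 0.38, SE 0.13, adjusted p = 0.0395), with 1 overlap, Healthy 227 above MI 256. The Cmpk2 call was lost in 10 of 18 alternatives, and without Healthy 227 the log2 fold change was 0.51 (adjusted p = 0.00895). With responding cells left out, which are chosen in part by Cmpk2 itself, its value was 0.03 (adjusted p = 0.875).

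Among the remaining effectors, Ifitm3 was at 3319, 2916, 2589 and 2702 CPM in the healthy and 4063, 4382, 4606 and 3956 CPM in the MI mice (log2 fold change 0.47, SE 0.09, adjusted p = 0.00382, edgeR), with no overlap. Bst2 (tetherin), which holds budding virus at the membrane, was at 1311, 947, 739 and 790.4 CPM and at 1064, 1149, 1184 and 1022 CPM (log2 fold change 0.14, SE 0.16, adjusted p = 0.52), with Healthy 227 above all MI mice. Without Healthy 227 all MI mice lay above the healthy mice in Bst2 (log2 fold change 0.33, adjusted p = 0.0479). Eif2ak2 (PKR), which halts translation on sensing double-stranded RNA, was at 53.0, 48.8, 39.7 and 50.8 CPM and at 69.1, 70.5, 79.8 and 64.2 CPM (log2 fold change 0.48, SE 0.10, adjusted p = 0.00619), with no overlap. These 3 genes gave a separated, an overlapping and a separated pattern. Lgals3bp was at 113, 118, 137 and 154 CPM and at 257, 249, 222 and 183 CPM (log2 fold change 0.72, SE 0.13, adjusted p = 0.00241). Ifi44 was at 104, 58.8, 49.7 and 61.2 CPM and at 97.0, 128, 147 and 99.6 CPM (log2 fold change 0.70, SE 0.22, adjusted p = 0.028). Lgals3bp separated the groups, and in Ifi44 Healthy 227 lay above 2 MI mice. The Ifi44 call was lost in 6 of 18 alternatives, 5 of them without 1 mouse (log2 fold change 0.57 to 0.67, adjusted p = 0.0504 to 0.0785), and without Healthy 227 the log2 fold change was 0.97 (adjusted p = 0.00328).

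The 3 other members that were called lower were highest in Healthy 227 and next highest in Healthy 228. Samd9l, an antiviral factor that restrains translation, was at 221, 178, 104 and 102 CPM in the healthy and 104, 96.9, 102 and 97.5 CPM in the MI mice (log2 fold change -0.68, SE 0.23, adjusted p = 0.0384, edgeR). Healthy 239 and 240 were level with the MI mice, and without Healthy 227 the value was -0.44 (adjusted p = 0.097). Parp14, an ADP-ribosyltransferase, was at 155, 117, 88.8 and 93.5 CPM and at 72.3, 74.9, 72.8 and 90.4 CPM (log2 fold change -0.63, SE 0.17, adjusted p = 0.0161), and the call was lost in cells without haematopoietic UMIs (-0.38, adjusted p = 0.171). Helz2, a nuclear receptor co-activator, was at 43.2, 40.6, 35.7 and 35.7 CPM and at 25.4, 31.3, 27.7 and 35.5 CPM (log2 fold change -0.46, SE 0.13, adjusted p = 0.0176), the single member with all MI mice below all healthy mice (2.70%, against 12.5% of all genes).

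**Figure D2:**
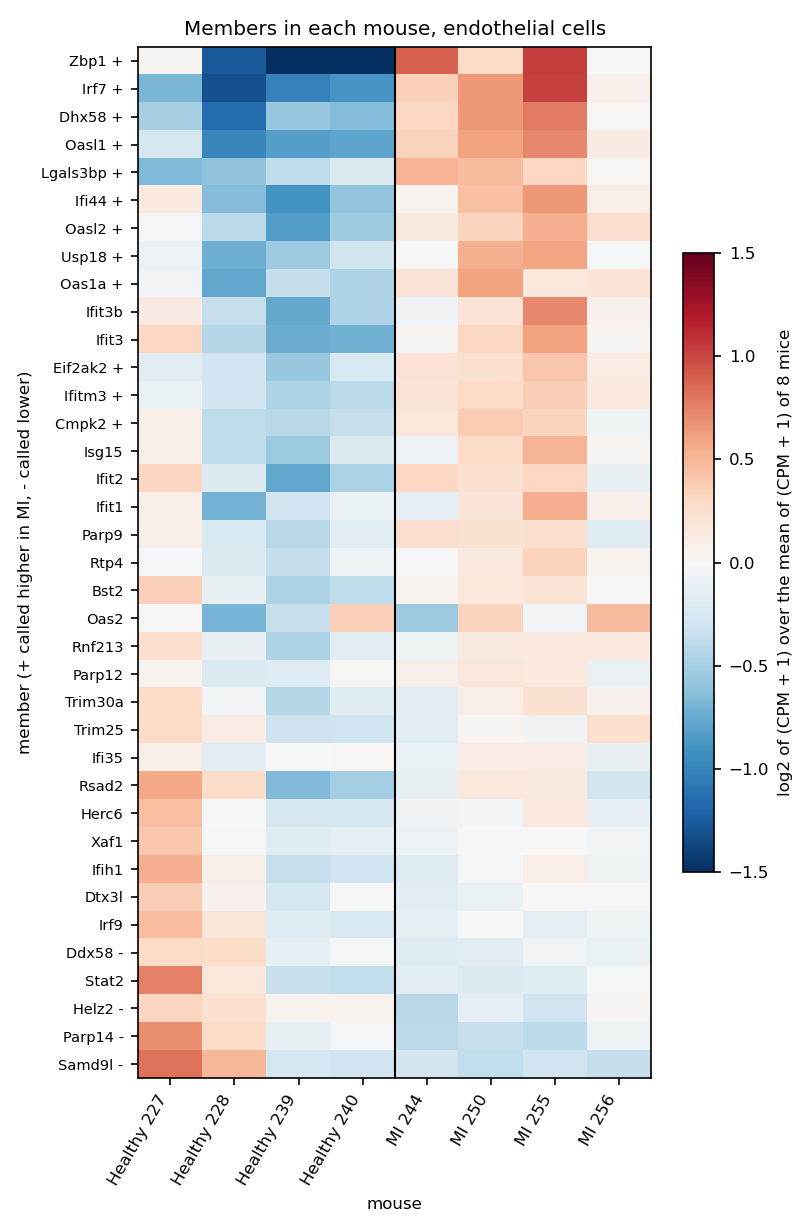
Level of each member (rows) in each of the 8 mice (columns, healthy left and MI right), as log2 of (CPM + 1) over the mean of the 8 mice, red above and blue below that mean. Members called higher or lower in MI are marked with a plus or a minus, and Healthy 227 had the highest healthy level in 35 of 37 members.

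**Figure D3:**
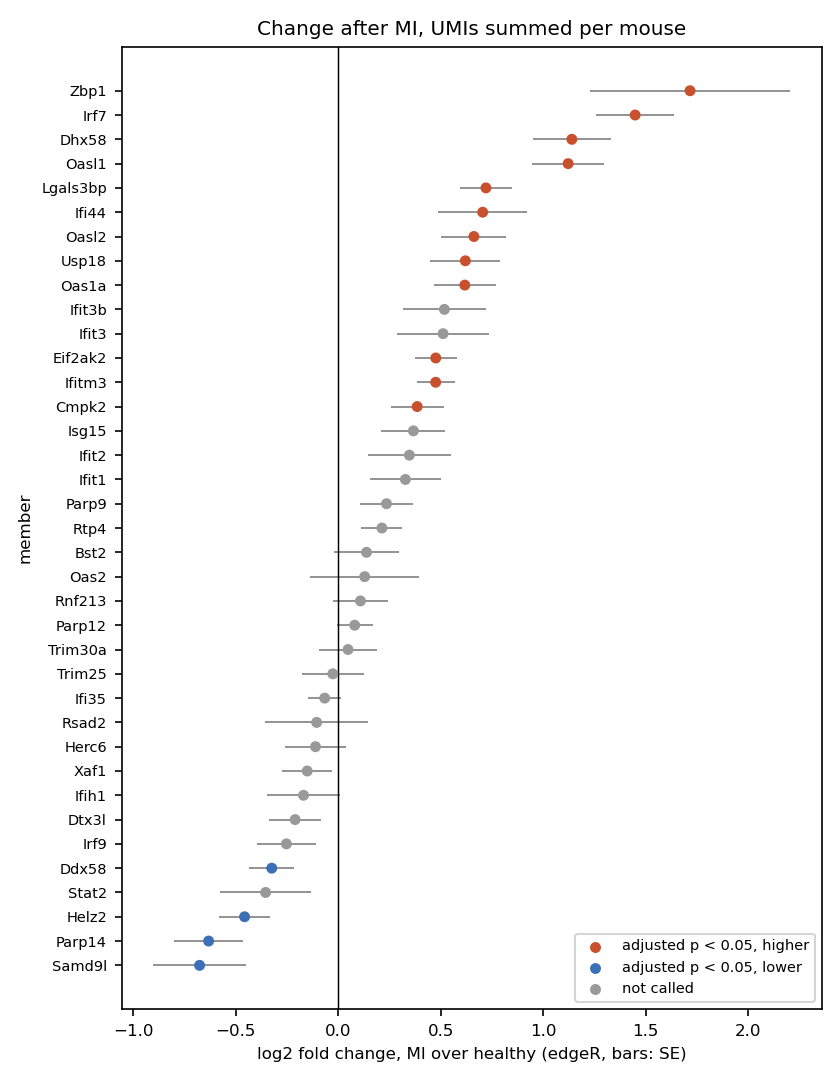
Log2 fold change of each member, MI over healthy, from UMIs summed per mouse (edgeR, 8 mice), with bars of 1 SE. Colours mark the 12 members called higher, the 4 called lower and the 21 not called at an adjusted p under 0.05.

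To compare the response across the coronary endothelium, cells were placed in classes by UMIs on marker genes that are not members. Responding cells were found in capillary, arterial, venous and sprouting cells, and in each of these classes the mean share was higher in MI. The share was below that of capillary cells of the same mouse in 6 of 8 mice for arterial, 5 for venous and 7 for sprouting cells. In capillary cells (7104 healthy and 7695 MI) the shares were 24.6%, 17.6%, 14.8% and 17.1% in the healthy and 27.6%, 31.9%, 42.9% and 27.8% in the MI mice, with no overlap. In arterial cells (1272 and 1569) they were 24.4%, 17.3%, 13.9% and 17.1%, and 25.1%, 30.7%, 38.3% and 28.3%. Both classes separated the groups, and in both Healthy 227 was closest to the MI mice. In venous cells (356 and 876) the shares were 24.0%, 18.8%, 16.2% and 15.1%, and 33.0%, 30.5%, 36.8% and 21.5%. In sprouting cells (437 and 1292) they were 28.4%, 13.6%, 10.1% and 12.9%, and 26.7%, 27.9%, 35.0% and 22.6%. Here Healthy 227 lay above the lowest MI mouse in venous cells and above 3 of 4 MI mice in sprouting cells. The venous markers included Ackr1, Selp and Tmem252, which the paper lists for a cluster made only of MI cells. They also included Vcam1, which it reports as raised after MI. Whether MI changed which cells met the venous or sprouting limits was not tested.

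Within capillary cells the Ifit genes passed the test that they missed over all EC. Of 37 members, 18 were higher in MI (48.6%, against 15.2% of all genes) and 1, Parp14, was lower (against 15.2%). Ifit1 had a log2 fold change of 0.54 (adjusted p = 0.032, edgeR), Ifit2 of 0.64 (0.0209), Ifit3 of 0.71 (0.0316), Isg15 of 0.58 (0.0169) and Irf7 of 1.70 (0.0008), and Rsad2 was at -0.02 (0.956). Ifit1 was at 119 ± 24.3 CPM in healthy and 183 ± 41.3 CPM in MI capillary cells (SD, n = 4). Without Healthy 227, 21 members were higher and 0 lower (against 12.3% and 12% of all genes). In capillary cells, too, the haematopoietic markers were higher, at 23.5 to 170 CPM in healthy and 285 to 505 CPM in MI mice. The endothelial markers were lower, at 6242 to 6694 and 5636 to 6128 CPM. The part of these lists in the capillary result was not tested.

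In the smaller classes fewer members and fewer genes passed. Arterial cells had 5 members higher (against 5.85% of all genes) and 0 lower (against 6.86%), with 13 of 37 at an unadjusted p under 0.05. Venous cells had 9 higher (against 4.64%) and 1 lower (against 6.15%), and sprouting cells 8 higher (against 3.01%) and 0 lower (against 4.51%, with 17 at an unadjusted p under 0.05). These counts rested on single mice. The venous count was 3 to 5 without any 1 mouse other than MI 256 (against 2.27% to 4.07% of all genes, with 33 members tested where an MI mouse was left out). With class limits 1 UMI higher, a setting chosen after the data were seen, it was 1 of 33 (against 1.5%). The sprouting count was 3 to 5 without any 1 mouse other than Healthy 227 or MI 256 (against 1.71% to 2.63%), and the arterial count was 2 or 3 without Healthy 239, Healthy 240, MI 250 or MI 255 (against 3.25% to 4.67%). Irf7, Ifitm3 and Lgals3bp were higher in all 4 classes, Ifi44, Oasl2 and Zbp1 in 3, 7 members in 2, 5 in 1 and 19 in none. Of the 6286 genes tested in all 4 classes, 1.51% were higher in 4, 2.04% in 3, 4.42% in 2, 10.7% in 1 and 81.3% in none. The log2 fold change of Irf7 was 1.70 in capillary, 1.18 in arterial, 1.95 in venous and 1.70 in sprouting cells. Its change was smaller in arterial than in capillary cells by 0.49 on the log2 scale (interaction -0.49, SE 0.10, adjusted p = 0.0036, edgeR), the 1 member called for this difference (against 0.634% of all genes, and 0 members in the other direction against 0.788%), with 15 members at an unadjusted p under 0.05. That call was lost without Healthy 227. Irf7 was at 148 ± 41.5 CPM in healthy arterial and 108 ± 18.7 CPM in healthy capillary cells, and at 348 ± 129 and 372 ± 132 CPM after MI. For venous against capillary cells no member was called in either direction (against 0.152% and 0.519% of all genes, with 2 members at an unadjusted p under 0.05).

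**Figure D4:**
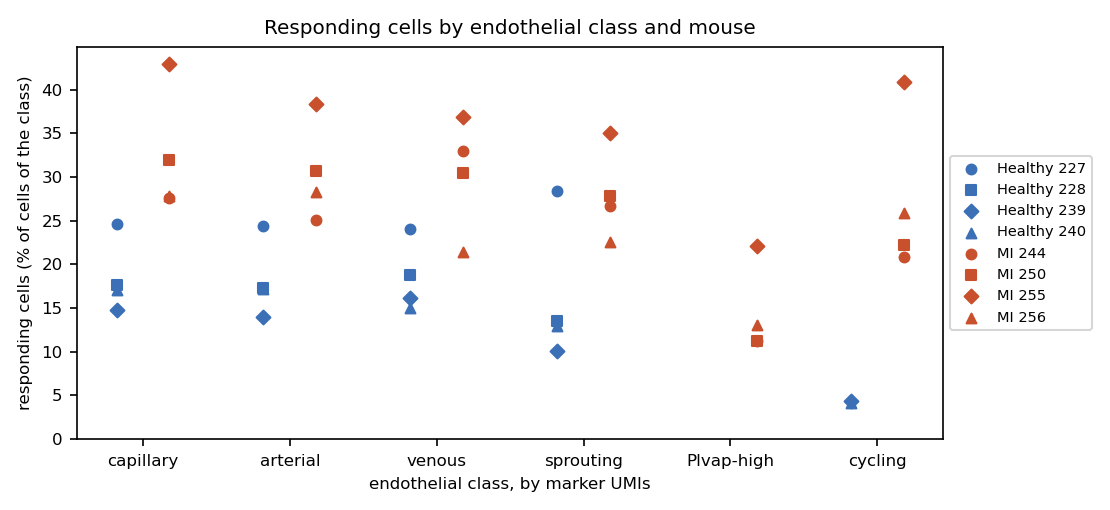
Share of responding cells (percent of the cells of a class, thinned to 1000 UMIs) by endothelial class, 1 point per mouse with at least 20 cells of the class. The Plvap-high class was filled by MI mice alone, at 11.3% to 22.1%.

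Plvap-high cells of the infarcted hearts had a low response. These cells, called by UMIs on markers that include Plvap (the diaphragm protein of fenestrated endothelium), Lrg1, Bgn and Vwf, numbered 796 in the MI mice and 7 in the healthy mice. They responded in 11.3%, 11.3%, 22.1% and 13.0% of cells in MI 244, 250, 255 and 256, where capillary cells of the same mice responded in 27.6%, 31.9%, 42.9% and 27.8%. Plvap-high cells were lower in each of the 4 mice. Their module level was 7.72 ± 0.435 UMIs per 1000, against 10.4 ± 1.26 in MI capillary cells (SD, n = 4).

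In a test within mice (edgeR with the mouse as a block), 30 of 37 members were lower in Plvap-high than in capillary cells (81.1%, against 13.5% of all genes) and 0 were higher (against 15.5%). Without the block 16 were lower (against 12% of all genes), but that fit set them against capillary cells of all 8 mice, healthy ones included. The median log2 fold change was -0.52, against 0.00 over all genes. The differences were large in the Ifit genes and in Rsad2. Rsad2 was at 111 ± 25.6 CPM in Plvap-high and 351 ± 61.0 CPM in MI capillary cells (log2 fold change -1.77), and Ifit2 was at 39.9 ± 9.25 and 139 ± 21.2 CPM (-1.80). Oas2 had a log2 fold change of -1.47, Cmpk2 of -1.39, Ifit3 and Ifit3b of -1.30 each, Ifit1 of -1.14, Isg15 of -0.86 and Irf7 of -0.66. Ifitm3, at 3951 ± 220 and 4524 ± 382 CPM, differed by -0.16 (adjusted p = 0.0438), and Trim25 by -0.00 (0.996). The 7 members not called were Helz2, Ifi44, Trim25, Dhx58, Rnf213, Dtx3l and Eif2ak2. Plvap-high cells were larger libraries, with 7055 to 8272 UMIs per cell against 3613 to 4990 in MI capillary cells, and their haematopoietic markers were at 315 to 523 against 285 to 505 CPM, higher in 4 of 4 mice. Their endothelial markers were at 5079 to 5727 against 5636 to 6128 CPM, lower in 4 of 4. Their fibroblast markers were at 25.05 to 41.7 CPM against 15.1 to 26.2 CPM, higher in 4 of 4 mice, and their pericyte and smooth muscle markers at 52.8 to 154 CPM against 45.9 to 69.3 CPM, higher in 3 of 4. The part of cell size and of these markers in the result was not tested, and CPM and thinned cells are both relative to the total.

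In the other classes 7 to 15 of 37 members differed from capillary cells, in both directions. Arterial cells had 2 members higher, Isg15 (log2 fold change 0.34) and Oas2 (0.27), and 5 lower, Rsad2 (-0.64), Zbp1 (-0.53), Rnf213, Ifi44 and Bst2 (against 14.4% and 15.2% of all genes). Sprouting cells had 1 higher, Bst2 (0.18), and 7 lower, among them Ifit1 (-0.51), Ifit3 (-0.41) and Isg15 (-0.29), against 7.05% and 7.32%. Venous cells had 3 higher, Zbp1 (0.52), Ifit1 (0.33) and Oasl2 (0.31), and 5 lower, Oas1a (-0.42) first, against 8.19% and 7.19%. The venous counts rested on single mice, with 0 higher without MI 244 and 1 lower without MI 250. Cycling cells had 5 higher, led by Oasl1 (0.57), and 10 lower, led by Ifit1 (-0.70) and Parp14 (-0.59), against 21.6% and 24.6%. Lower calls were 4 in sprouting and 4 in cycling cells without MI 250, and 9 in arterial cells without Healthy 239. Higher calls were 3 in cycling cells without MI 256. Without the mouse as a block, cycling cells had 3 members higher and 1 lower (against 17.9% and 19.3% of all genes). The other 3 classes then had 0 in either direction (edgeR, with 0 to 3 members at an unadjusted p under 0.05), against 2.43% to 7.32% of all genes higher and 2.61% to 6.43% lower. In arterial and cycling cells these shares of members were near or below those of all genes, and the lower calls came to 13.5% of members in venous and 18.9% in sprouting cells. Cycling cells were rare in healthy hearts. In Healthy 239 1 of 23 responded (4.35%, exact 95% interval 0.110% to 21.9%) and in Healthy 240 1 of 24 (4.17%, 0.105% to 21.1%), where the 4 MI mice had 20.8%, 22.2%, 40.8% and 25.9%.

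**Figure D5:**
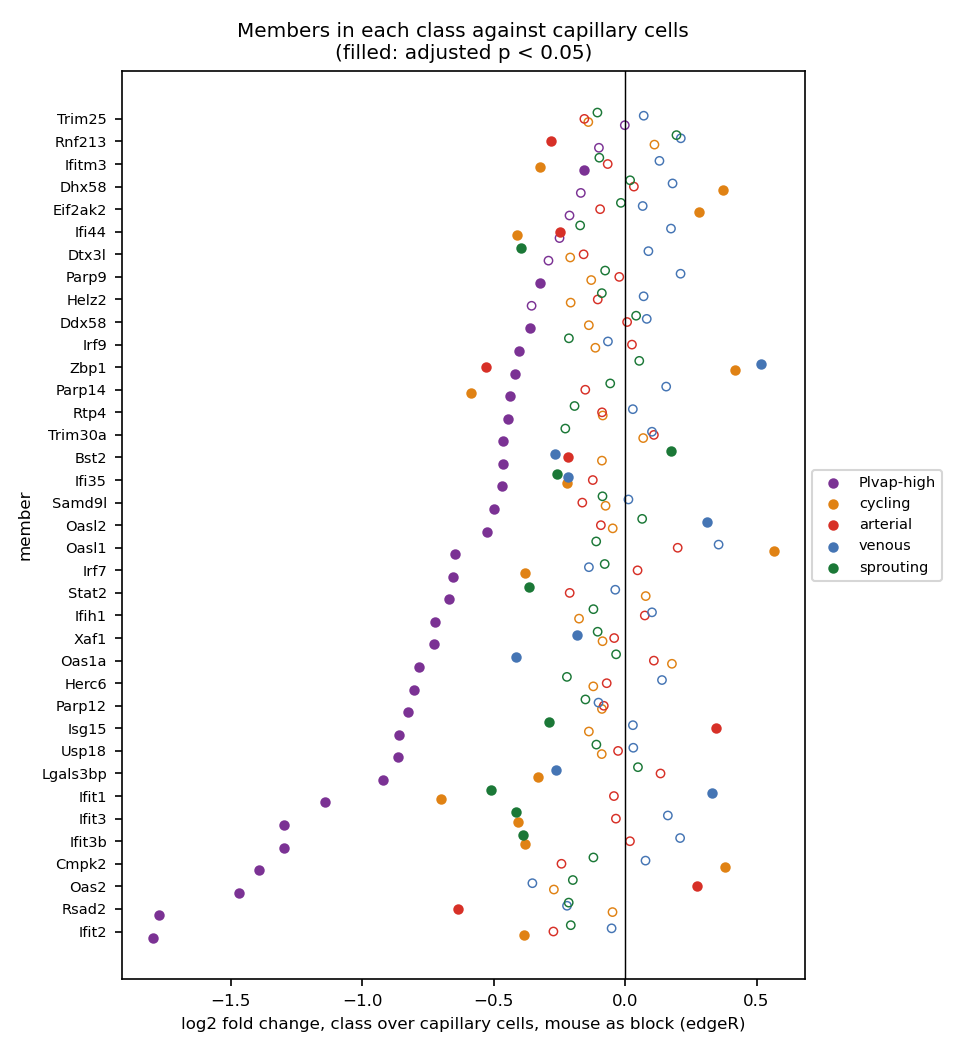
Log2 fold change of each member between an endothelial class and capillary cells of the same mice (edgeR, mouse as a block), filled where the adjusted p was under 0.05. Plvap-high values lie furthest to the left, with 30 of 37 members called lower.

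The rest of the pathway was read from lists of genes around the module in the sums over all EC. Shares of these lists are read against the 18.7% of all genes called higher and the 18.9% called lower in the same fit. Among the ligands 1 of 10 listed genes was in the table and was too low to test. Of 6 receptor genes 5 were tested and 1 fell. Ifnar1 was at 58.6 ± 1.96 CPM in healthy and 56.5 ± 1.45 CPM in MI mice (SD, n = 4, adjusted p = 0.125, edgeR), and Ifnar2 at 127 ± 11.2 and 125 ± 2.72 CPM (adjusted p = 0.357). Il10rb, a subunit shared by interleukin 10 and type III interferon receptors, fell from 192 ± 34.9 to 140 ± 6.12 CPM (log2 fold change -0.54, adjusted p = 0.00609).

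Of 10 kinases and transcription factors 2 rose, close to the share of all genes, and 3 fell. The receptor kinases Jak1 (log2 fold change 0.10, adjusted p = 0.395, edgeR) and Tyk2 (-0.16, adjusted p = 0.478) were not called. The 3 that fell were interferon regulatory factors: Irf2, a repressor of interferon targets, went from 153 ± 10.9 to 99.5 ± 3.87 CPM (log2 fold change -0.71), Irf1 from 206 ± 18.1 to 154 ± 15.8 CPM (-0.51) and Irf3, which starts interferon transcription, from 85.5 ± 12.6 to 66.2 ± 3.55 CPM (-0.46). Irf5 (log2 fold change 1.97) and Irf8 (1.15), both known from leukocytes, rose, Irf5 from 0.691 ± 0.0756 to 2.92 ± 0.420 CPM, beside the higher haematopoietic markers given above.

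Of 9 tested sensors and adaptors 2 rose, again close to the share of all genes, and 0 fell: Tmem173 (STING), the adaptor of cytosolic DNA sensing, went from 32.8 ± 6.14 to 55.3 ± 7.26 CPM (log2 fold change 0.67, adjusted p = 0.00588, edgeR), and Myd88, the Toll-like receptor adaptor, from 23.0 ± 3.09 to 36.9 ± 2.43 CPM (0.59). Ube2l6, which conjugates Isg15, rose by 0.46, 1 of 2 genes of that step. Of 8 tested genes on a list of negative regulators 2 rose, the cytokine inhibitor Socs3 (0.80) and Isg20 (0.71), and Pias1 fell (-0.41). Isg20 is an antiviral exonuclease rather than a regulator, so Socs3 was the only regulator that rose. Of 15 tested genes that lean towards interferon gamma 2 rose and 2 fell, below the shares of all genes. Cxcl10, a chemokine for T cells, was at 13.6, 18.1, 13.6 and 11.1 CPM in the healthy and 122, 70.6, 127 and 41.0 CPM in the MI mice (log2 fold change 2.60, SE 0.34, adjusted p = 0.000686), with no overlap. Irgm1 rose by 1.08. The GTPases Tgtp1 (-1.86) and Tgtp2 (-1.94), near-identical copies whose split is uncertain, were high in Healthy 227 and 228 alone (Tgtp1 at 109 and 85.7 CPM, against 12.6 to 19.9 CPM in the other 6 mice). Of 8 genes known to respond to tissue dissociation 1 rose (Atf3, 0.73) and 1 fell (Hspa1b, -1.44).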

How the data were processed

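Counts of UMIs per gene and cell were deposited by the authors as 1 table; per the labels and the study's methods, Cell Ranger counted reads on mm10 and cells were handled in R 3.5.2 with Seurat 2.3. The members, the core genes and the pathway lists were chosen with earlier results of these data known, and the limits of the endothelial classes were set after the data were seen. Cells were grouped by mouse from the labels. Copied cells (same barcode, at least 90% of UMIs shared) were removed, and so were cells with at least 3 UMIs, and 3 per 1000, on a list of another cell type (doublets were treated in no other way). Kept cells had at least 1 UMI on 7 endothelial markers. Classes needed at least 3 UMIs of 1000 on cycling, lymphatic, arterial or Plvap-high markers, 2 on endocardial or venous and 4 on sprouting ones. Capillary cells had at least 15 UMIs on capillary markers and passed none of the other limits. The other classes could also hold capillary UMIs, with a median of 16 in arterial, 24 in venous and 20 in sprouting cells. Cells past more than 1 of the other limits (mixed, 1388 in MI) or in no class were not compared.

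UMIs summed per mouse were tested with edgeR 4.0.16 (TMM, filterByExpr, quasi-likelihood, R 4.3.3), Benjamini-Hochberg threshold 0.05, and in classes with at least 20 cells per mouse. The test over all EC was tried on simulated data with 50 genes changed at each size. It recovered 6% of those changed 1.25 times, 58% at 1.5 times, 96% at 2 times and 100% at 4 times. Smaller changes can therefore be missed. Values per mouse are given for the 10 called members with the largest change, the 5 with the highest CPM, the study's marker genes, Isg15 and Irf7, with others beside them. Alternatives were DESeq2 1.42.0, no filter, copies kept, all cells, clusters (Seurat 5.3.0), thinned cells, responding cells left out, other scores and limits, and each mouse left out. Scores used Python 3.11.15, numpy 2.4.6, scipy 1.17.1 and pandas 2.3.3. Intervals cover counting error only. Results for some genes of the lists are not reported here.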

Additional observations from a re-analysis of the deposited data

Results flagged for a closer look

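Among groups of 4 mice, 108 sets of values were tested for a mouse far from the other 3, and 9 had a gap to the nearest other mouse beyond Dixon's critical value, which chance passes in about 1 of 20 groups. Cmpk2 was at 87.0 CPM in Healthy 227, with the other healthy mice at 60.9 to 64.5. Oas1a was at 67.7 CPM in MI 250 (others 50.0 to 51.1), Rnf213 at 64.7 CPM in MI 244 (74.6 to 75.2), and in MI 256 Parp9 was at 47.6 CPM (63.5 to 64.6) and Parp14 at 90.4 CPM (72.3 to 74.9). Responding cells held 5.74 UMIs on the members outside the core in Healthy 227 (4.35 to 4.52) and 4.25 in MI 256 (4.94 to 5.05). Sprouting cells of Healthy 227 had a module level of 9.01 UMIs per 1000 (6.11 to 6.48), and Plvap-high cells of MI 255 responded in 22.1% of cells (11.3% to 13.0%). Of these 9 values, 3 were in Healthy 227 and 3 in MI 256.

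The change of Irf7 after MI differed between arterial and capillary cells by -0.49 (log2, adjusted p = 0.00357, edgeR), the class in which it was smaller being arterial. That call was lost without Healthy 227, when 0 members were called for a smaller change in arterial cells. In the haematopoietic cells that were removed from the comparisons, the module was higher in every MI mouse, at 4.70 UMIs per 1000 or more, than in the 3 healthy mice with enough of these cells (3.58 to 4.20).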

How the results depend on the processing

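Over all endothelial cells, the 12 members higher in MI stayed between 8 and 18 under every alternative, and leaving out each mouse gave 8 to 18 higher and 1 to 4 lower members (4 with all mice, and 1 without MI 244 or MI 255). Members called lower fell to 2 in thinned cells, 0 without haematopoietic UMIs and 0 in the 6 mice with high Xist. The sign of Rsad2 turned to 0.14 without Healthy 227, 0.006 without Healthy 228 and 0.17 in the 6 mice with high Xist, with a range of -0.28 to 0.14 over mice left out. Irf7, Dhx58, Oasl1, Lgals3bp, Oasl2, Oas1a, Eif2ak2 and Ifitm3 passed the test under every alternative. Of 18 alternatives, the call was lost in 13 for Ddx58, 10 for Cmpk2, 9 for Samd9l, 6 for Ifi44, 4 for Helz2, 4 for Zbp1 (without Healthy 228, Healthy 240, MI 244 or MI 255), 3 for Usp18 and 2 for Parp14. The causes were not tested.

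Within classes, leaving out each mouse gave 12 to 21 higher and 0 to 3 lower members in capillary, 2 to 6 and 0 to 1 in arterial, 3 to 12 and 0 to 2 in venous and 3 to 9 and 0 to 1 in sprouting cells. The 1 lower capillary member became 2 without a filter on low counts, 2 with copied cells kept, 2 with DESeq2 and 0 in the 6 mice with high Xist. Shares of all genes called higher in the same fits follow in brackets. The 5 higher arterial members became 10 without the filter (4.9%) and 8 in those 6 mice (2.78%), and the 0 lower became 1 with copies kept. The 9 higher venous members became 17 without the filter (4.8%), 1 of 33 tested with higher class limits (1.5%), 5 with DESeq2 (2.89%) and 2 in the 6 mice (1.4%), and the 1 lower became 0 with copies kept, with higher limits and in the 6 mice. The 8 higher sprouting members became 13 without the filter (3.2%) and 4 of 34 tested with higher limits (1.81%).

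No paired analysis was possible because the healthy and MI mice share no replicate number. Between classes of the same mice the mouse was a block, and with no replicate block the 30 members lower in Plvap-high cells became 16, the arterial counts 0 higher and 0 lower, the cycling counts 3 and 1, the sprouting counts 0 and 0 and the venous counts 0 and 0. Without the block Plvap-high cells of the MI mice were set against capillary cells of all 8 mice, so the comparison changed as well. Leaving out each mouse gave 0 higher and 27 to 31 lower members in Plvap-high, 1 to 2 and 4 to 9 in arterial, 3 to 5 and 4 to 10 in cycling, 0 to 1 and 4 to 8 in sprouting and 0 to 5 and 1 to 7 in venous cells. With copies kept, 3 arterial members were lower, 2 sprouting members higher and 4 lower, and 1 venous member higher. With higher limits, 2 arterial and 6 cycling members were lower, and 5 venous members higher and 3 lower. DESeq2 gave 1 arterial member higher, 3 arterial lower and 1 venous lower. For the difference in MI effect, copies kept gave 3 lower arterial and 2 higher venous members, and leaving out each mouse 0 to 1 higher and 0 to 4 lower arterial and 0 to 1 higher and 0 lower venous members (Irf7 was lost without Healthy 227).

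The difference in module UMIs (2.60 per 1000, 2.25 to 3.19 with each mouse left out) was 1.13 without Ifitm3, 0.803 without the 3 members with the most UMIs and 0.802 on the core alone. The difference in responding cells (10.3 percentage points, 8.21 to 12.4 with each mouse left out) was 5.26 with a limit of 5 core UMIs, and the level per responding cell differed by -0.104 to 0.358. Low depth of the healthy libraries limits members near the 0 to 2.51 CPM of Oas3, and 4 mice per group limit all tests. Class limits and the alternatives on haematopoietic UMIs and Xist were chosen after the data were seen.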

Other observations

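Genes outside the list also stood higher in responding than in other endothelial cells, as mean UMIs per 1000 over the 8 mice. Cxcl10 was 7.89 times higher, the nucleic acid sensor relatives Mnda and Ifi204 were 5.19 and 4.06 times higher, the GTPase gene Gm4951 3.83 times and Isg20, an exonuclease, 3.57 times. They were singled out after their values were seen, among 6209 genes ranked by this ratio, and the responding call itself picks cells by genes of the same response, so the ratios describe which transcripts accompany the core.

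Pericyte or smooth muscle cells removed from the comparisons had a module level of 3.05 to 6.62 UMIs per 1000 in the healthy mice, with Healthy 227 highest, and up to 8.07 in the MI mice.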
